A study of Mus musculus with 24 samples.

Results

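Tmem50b, C2cd2, Hunk, Clic6 and Mrap are 5 genes of the chromosome 16 segment that is present in 3 copies in Ts1Cje mice and in 2 copies in 2N mice. They were chosen by gene symbol, as genes of the segment grouped under the heading of membrane-linked genes. The heading is loose, since Hunk is described below as a protein kinase with no membrane link given. The rule used no measured value, but earlier results of these data were known when it was made. They are 5 of the 13674 genes that the platform annotation names singly, and 7 of the 24833 probe sets on the 2 array designs belong to them. Each probe set is described apart. Array A (MGU74A) carries 4 of the 7, namely 96340_at and 161222_r_at for Tmem50b, 102862_at for C2cd2 and 104325_at for Mrap. Array B (MGU74B) carries the other 3, namely 162691_at for C2cd2, 163230_at for Hunk and 163671_at for Clic6.

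Total RNA of mouse brain was hybridised to 24 Affymetrix arrays, with 6 Ts1Cje and 6 2N samples on each design. Ts1Cje is a mouse model of Down syndrome in which a distal part of chromosome 16 is carried as an extra copy, joined to chromosome 12. The extra copy begins at Sod1, whose copy there is inactivated, and the 2N mice have the normal 2 copies of every gene. The labels give neither strain, age, sex nor brain region. Nor do they say whether each numbered sample is a different animal, and the p-values therefore reflect only how these samples vary, part of which may be technical.

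The 5 products have different tasks. Tmem50b encodes a small protein of the endoplasmic reticulum and Golgi membranes. C2cd2 encodes a protein with a C2 domain, a fold that often binds membrane lipids, and its paralog C2cd2l moves phosphatidylinositol between the endoplasmic reticulum and the plasma membrane. Hunk is a protein kinase related to AMP-activated kinase, first studied in the mammary gland. Clic6 belongs to the chloride intracellular channel family, proteins that exist in soluble and membrane forms, and its RNA in the brain is best known from the choroid plexus. Mrap brings the adrenocorticotropin receptor Mc2r to the cell surface and is known from the adrenal cortex and fat tissue rather than from brain.

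The start regions of the genes are shown because an added chromosome segment carries its genes together with their promoters. RefSeq windows (GRCm38.p6) were at hand for 3 of the 5 genes, and the 250 bases before the start are printed 5′ to 3′ on the gene's strand. Capitals mark GC boxes (GGGCGG or its reverse complement CCGCCC) and CCAAT boxes (CCAAT or ATTGG), which do not overlap here. The windows lie at chr16:91597681-91597930 on the minus strand for Tmem50b, chr16:97922634-97922883 on the minus strand for C2cd2 and chr16:90386147-90386396 on the plus strand for Hunk.
Tmem50b: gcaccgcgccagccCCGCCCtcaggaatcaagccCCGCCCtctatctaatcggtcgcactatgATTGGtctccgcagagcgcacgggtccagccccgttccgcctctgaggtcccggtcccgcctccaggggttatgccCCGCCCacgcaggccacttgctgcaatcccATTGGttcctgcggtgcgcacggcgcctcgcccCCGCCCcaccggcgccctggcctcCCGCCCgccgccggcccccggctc
C2cd2: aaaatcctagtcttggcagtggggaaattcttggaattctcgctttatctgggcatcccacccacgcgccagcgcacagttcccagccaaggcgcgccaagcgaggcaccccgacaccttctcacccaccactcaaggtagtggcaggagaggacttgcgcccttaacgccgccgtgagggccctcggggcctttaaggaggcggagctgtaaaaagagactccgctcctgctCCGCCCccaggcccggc
Hunk: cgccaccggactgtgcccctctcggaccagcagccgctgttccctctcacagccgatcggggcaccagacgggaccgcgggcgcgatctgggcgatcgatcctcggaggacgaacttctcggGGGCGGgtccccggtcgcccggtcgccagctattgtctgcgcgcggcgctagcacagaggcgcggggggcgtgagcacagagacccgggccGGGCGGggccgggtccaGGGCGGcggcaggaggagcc

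The Tmem50b window held 5 GC boxes and 2 CCAAT boxes, the Hunk window 3 GC boxes and the C2cd2 window 1, and no window held the TATA box letters TATAAA or TTTATA. Over all 32851 RefSeq windows of the same length, 32.7% held a GC box, 33.8% a CCAAT box and 12.4% the TATA letters. The windows held 28, 17 and 34 CpG dinucleotides for Tmem50b, C2cd2 and Hunk, where the median over all windows was 6. These letters describe the windows and say nothing of which factors bind there.

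Expression was compared between genotypes to ask whether each gene followed its copy number, for which the ratio would be 1.5. Intensities were quantile normalised within an array design. A probe set was tested if its mean reached the 25th percentile of its table, which all 7 did. Tmem50b 161222_r_at did so only through its Ts1Cje values, with a mean of 5.51 against a limit of 5.11. Its mean was 7.02 in Ts1Cje and 3.99 in 2N, and it was not tested without Ts1Cje replicate 2 or 6. It stays in the counts below, where its direction is no support for a rise. The log2 difference of Ts1Cje minus 2N was above 0 for 7 of 7 probe sets, with ratios between 1.22 and 1.82. None passed an adjusted p of 0.05 over all probe sets of its table (limma with Benjamini-Hochberg adjustment): 0 of 4 passed on array A, where 0.0966% of all 9316 tested probe sets did. Array B had 0 of 3, beside 0.0645% of its 9308. The unadjusted limma p was under 0.05 for 2 of 4 probe sets of the first design and 3 of 3 of the second, beside 3.63% and 4.24% of all tested probe sets. The median log2 difference was 0.68 over the 4 probe sets of array A and 0.42 over the 3 of array B, against -0.00424 and -0.00346 over all tested probe sets.

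**Figure D1:**
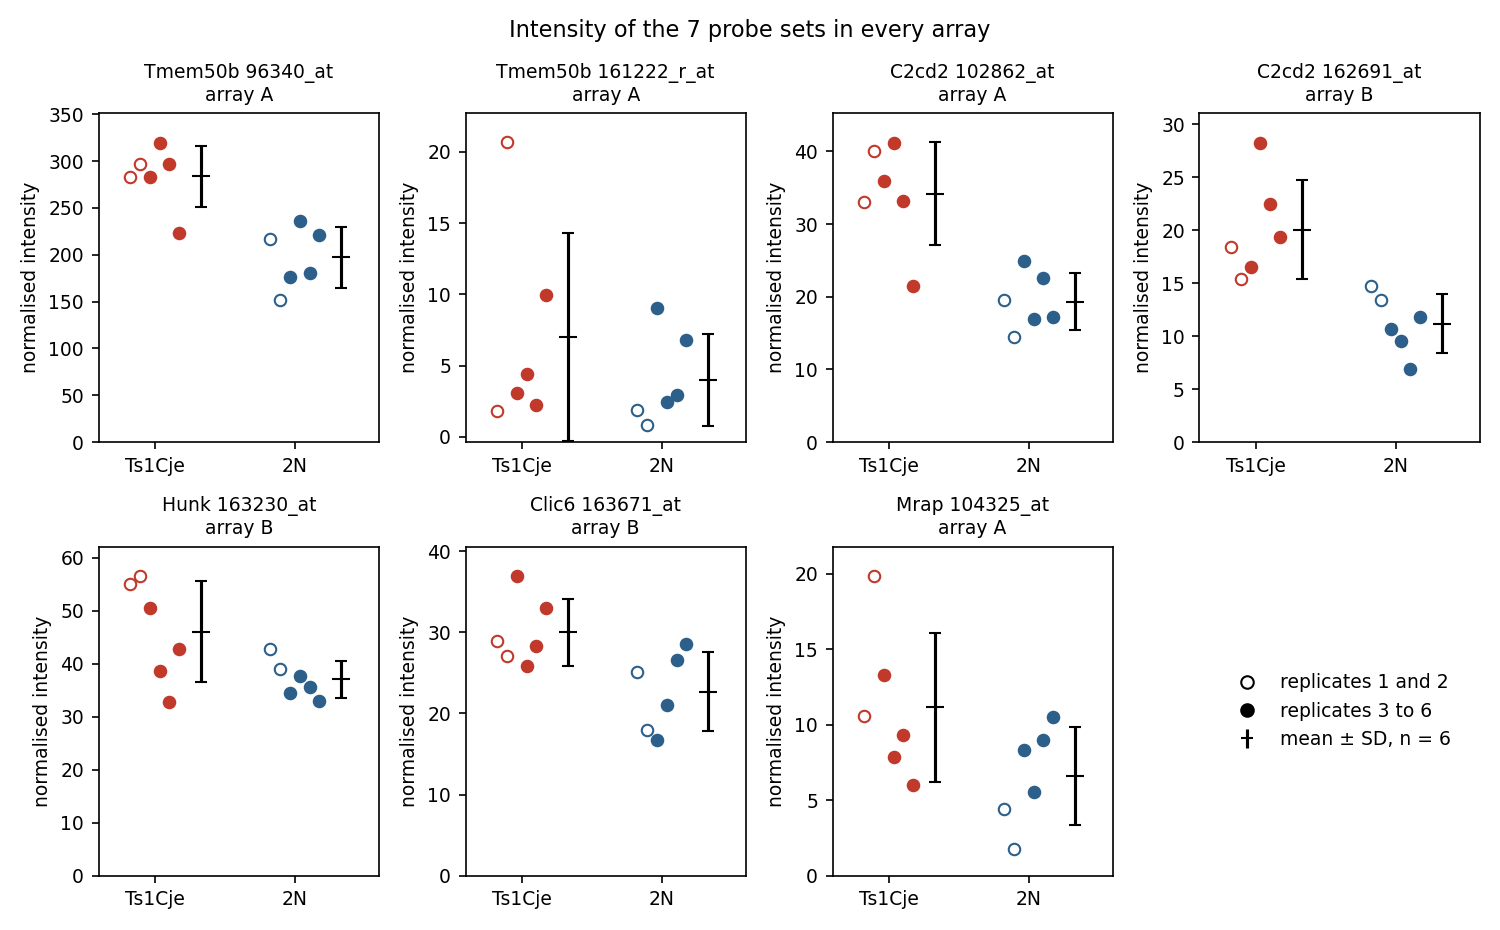
Quantile-normalised intensity (vertical axis, linear) of the 7 probe sets in the 6 Ts1Cje samples (red, left) and 6 2N samples (blue, right) of each array design. Open circles are replicates 1 and 2, filled circles replicates 3 to 6, and black bars the mean ± SD (n = 6); the 2 groups are fully separate for C2cd2 162691_at on array B alone.

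For Tmem50b, the probe set 96340_at lay at the 94.6th percentile of brightness on array A, with 223 as the lowest, 290 as the median and 319 as the highest normalised intensity in Ts1Cje samples, against 152, 199 and 236 in 2N samples. All but 1 of the 6 Ts1Cje samples exceeded every 2N sample, and Ts1Cje replicate 6 lay inside the 2N range. The mean was 284 ± 32.7 in Ts1Cje and 197 ± 32.5 in 2N (SD, n = 6 each). The log2 difference of 0.53 (SE 0.11, limma adjusted p = 0.12) is a ratio of 1.45 with a 95% interval of 1.23 to 1.70. The interval held 1.5 and excluded 1. The exact permutation p of this probe set alone was 0.0043.

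Ts1Cje replicate 6 was also the array with the lowest deposited median on array A, at 11.2, where the highest was 21.7. Without it the Tmem50b difference was 0.60 and passed (limma adjusted p = 0.035), and C2cd2 on the same array passed too, so the count of member probe sets past the threshold on array A was 2 instead of 0. With array quality weights Tmem50b passed as well (adjusted p = 0.033). Over all alternatives the adjusted p of 96340_at ran from 0.033 to 0.9999.

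The other Tmem50b probe set, 161222_r_at, was dim. Affymetrix gave the r suffix to sets whose probes could not all follow its selection rules. Its intensity was 1.83 at the lowest, 3.73 at the median and 20.7 at the highest in Ts1Cje samples, against 0.833, 2.69 and 9.04 in 2N samples, at the 26.6th percentile of brightness, and 1 2N value was under the floor. The groups overlapped broadly, with 2 Ts1Cje samples above all 2N samples. The highest value was in Ts1Cje replicate 2 and the next, 9.95, in Ts1Cje replicate 6. Its log2 difference was 0.53 (SE 0.68, limma adjusted p = 0.99), the same value to 2 decimals as for 96340_at but with an interval of 0.535-fold to 3.91-fold. The difference between the 2 Tmem50b probe sets, taken within each sample, was -5.90 on the log2 scale in both Ts1Cje and 2N samples, so the genotypes differed by -0.000873 (exact permutation p = 0.998), with an SD of 1.41 in Ts1Cje and 1.03 in 2N. The spread of the dim probe set was thus many times the difference under comparison, and the 2 probe sets were shown neither to differ nor to be alike.

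C2cd2 was measured on both designs, and array A gave a ratio of 1.76 and array B one of 1.81. On array A the intensity was 21.5 at the lowest, 34.6 at the median and 41.2 at the highest in Ts1Cje samples, against 14.5, 18.4 and 24.99 in 2N samples. Ts1Cje replicate 6 was again the low one, and the other 5 Ts1Cje samples exceeded every 2N sample. The log2 difference was 0.82 (SE 0.19, limma adjusted p = 0.28). Leaving out Ts1Cje replicate 6 gave 0.95 and a pass (limma adjusted p = 0.037), and the adjusted p ran from 0.037 to 0.9999 over all alternatives.

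On array B the C2cd2 intensity was 15.4 at the lowest, 18.9 at the median and 28.3 at the highest in Ts1Cje samples, against 6.94, 11.3 and 14.8 in 2N samples. Every Ts1Cje sample exceeded every 2N sample, which held for 1 of the 7 member probe sets. Of all tested probe sets, 0.193% showed that order on array A, as did 0.193% on array B. The log2 difference was 0.85 (SE 0.21, limma adjusted p = 0.58), and the exact permutation p of 0.0022 is the smallest that 6 against 6 samples can give. The 95% interval was 1.34 to 2.32 for 102862_at and 1.33 to 2.46 for 162691_at, so both held 1.5 and excluded 1. The sample titles number both designs alike without saying that a number stands for the same RNA, so the 2 probe sets need not be independent measurements.

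Hunk had the lowest ratio of the 7. Its intensity on array B was 32.9 at the lowest, 46.6 at the median and 56.5 at the highest in Ts1Cje samples, against 33.0, 36.6 and 42.7 in 2N samples. Ts1Cje replicates 1, 2 and 3 were clearly above the 2N range and replicate 6 by a hair, while replicates 4 and 5 lay within or below it. The mean was 46.1 ± 9.51 in Ts1Cje and 37.1 ± 3.49 in 2N (SD, n = 6 each), so the Ts1Cje samples were the more scattered. The log2 difference of 0.29 (SE 0.13, limma adjusted p = 0.996, exact permutation p = 0.074) is a ratio of 1.22.

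The Hunk interval ran from 1.01 to 1.49, the one member interval that ended below 1.5. It did so by a small margin: over 25 alternative settings the interval ended below 1.5 in 15 and held 1.5 in 10, and with 1 sample left out it ended below 1.5 in 5 of 12 cases. It held no difference, a ratio of 1, in 12 of the 25. Hunk lies next to the start of the extra copy, as the second gene after Sod1 in the reference order.

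Clic6 had an intensity of 25.8 at the lowest, 28.6 at the median and 36.9 at the highest in Ts1Cje samples on array B, against 16.7, 23.1 and 28.6 in 2N samples. Of the 6 Ts1Cje samples, 3 exceeded every 2N sample, and all 6 lay above the 2N median. The log2 difference of 0.42 (SE 0.16, limma adjusted p = 0.996, exact permutation p = 0.019) is a ratio of 1.34 with an interval of 1.07 to 1.68. This held 1.5 and excluded 1.

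Because Clic6 is known from the choroid plexus, markers of that tissue were set beside it. Of 12 listed markers, 7 were on array A and 4 were tested there, with 0 passing (limma; 0 also at an unadjusted p under 0.05), and none was on array B, which carries Clic6. The summed intensity of the 4 ran from 217 to 374 in Ts1Cje samples and from 169 to 493 in 2N samples. Ttr, the transthyretin gene, averaged 239 in Ts1Cje and 244 in 2N, and the folate receptor gene Folr1 averaged 38.7 in Ts1Cje and 30.2 in 2N. The dimmer Aqp1 averaged 13.8 in Ts1Cje and 10.5 in 2N (log2 difference 0.64, SE 0.37), and Car12 averaged 16.1 and 17.1. The median log2 difference of the 4 was 0.21, with 3 of 4 above 0. The part of choroid plexus content in the Clic6 value was not tested. In whole-tissue RNA a change in the number of cells that express a gene and a change in RNA per cell cannot be told apart.

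Mrap was dim. Its intensity on array A was 5.98 at the lowest, 9.95 at the median and 19.8 at the highest in Ts1Cje samples, against 1.76, 6.93 and 10.5 in 2N samples, at the 36.3rd percentile of brightness. Of the 6 Ts1Cje samples, 3 exceeded every 2N sample. The log2 difference was 0.86 (SE 0.44, limma adjusted p = 0.99, exact permutation p = 0.078), and the interval of 0.959-fold to 3.45-fold held both no difference and 1.5. The ratio of 1.82 was uneven over the samples, since the log2 difference was 2.37 between genotypes among replicates 1 and 2 and 0.11 among replicates 3 to 6.

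Of adrenal cortex markers, 4 were tested on array A and 0 passed (limma; 0 at an unadjusted p under 0.05). Their summed intensity was 234 to 289 in Ts1Cje samples and 181 to 288 in 2N samples. Nr5a1 averaged 146 in Ts1Cje and 136 in 2N, and Cyp21a1 averaged 58.8 and 54.2. Fdx1 averaged 48.2 in Ts1Cje and 46.0 in 2N, and the dim Star 9.32 and 8.62. The enzyme genes Cyp11a1 and Hsd3b1 were too dim to be tested. Of adipocyte markers, 2 were tested there and 0 passed (0 at an unadjusted p under 0.05). They summed to 50.6 to 84.4 in Ts1Cje samples and 39.9 to 89.6 in 2N samples. Lep averaged 43.7 in Ts1Cje and 36.0 in 2N, and Lpl averaged 24.5 and 25.8. The defining genes Adipoq and Fabp4 were under the brightness limit. On array B the resistin gene Retn was the 1 adipocyte marker tested, at 2.30 in Ts1Cje and 6.17 in 2N, and it did not pass (limma adjusted p = 0.996, unadjusted p under 0.05). The part of these tissues in the Mrap value was not tested.

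**Figure D2:**
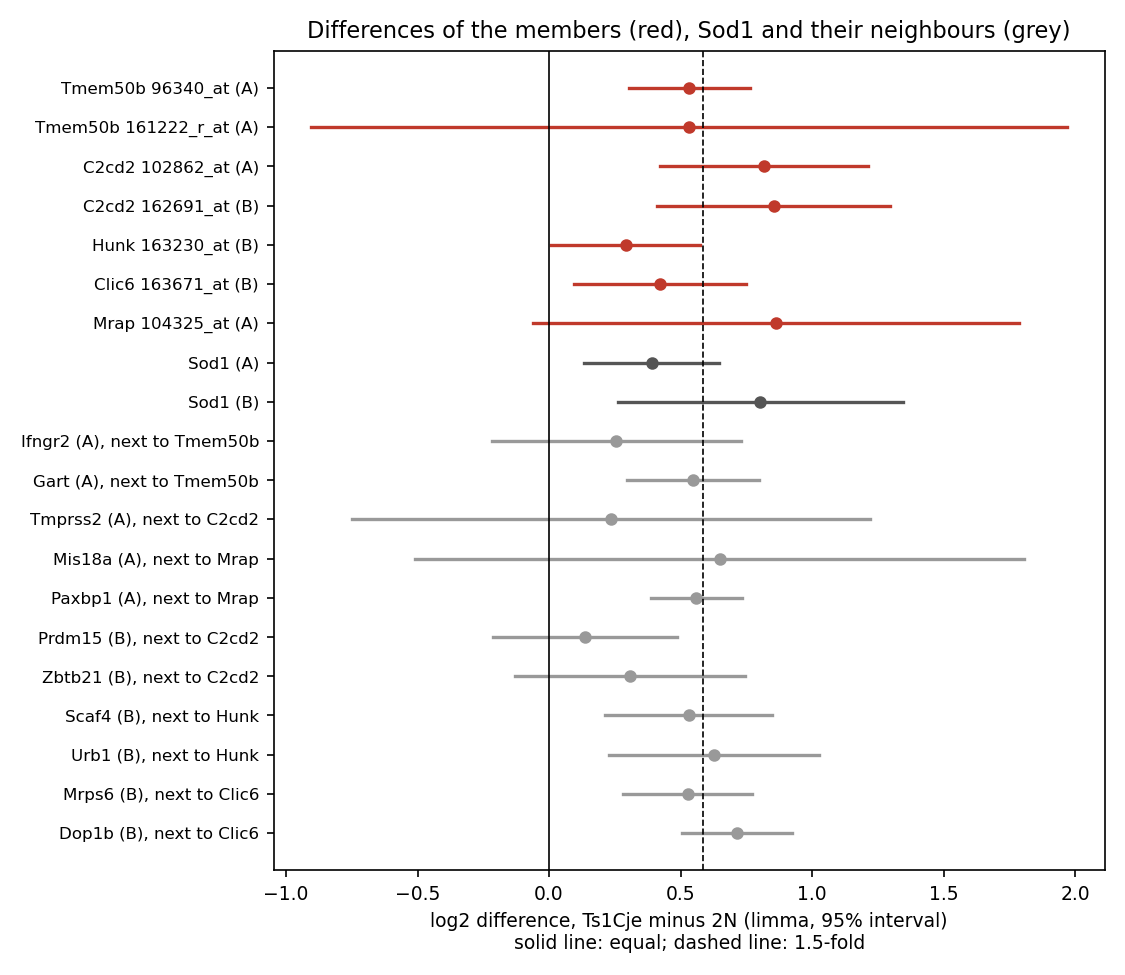
Log2 difference of Ts1Cje minus 2N (horizontal axis) with its 95% limma interval for the 7 member probe sets (red), Sod1 (dark grey) and the nearest tested genes on the same array as each member (light grey), with the array in brackets. The solid line is no difference and the dashed line the 1.5-fold of 3 copies; of the members, Hunk ends just short of the dashed line.

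In all, 6 of 7 member intervals held 1.5, beside 29.9% of all tested probe sets on array A, 34.8% on array B, and 26 of 29 and 21 of 25 other genes of the segment. A ratio of 1 was excluded for 5 of 7, beside 3.63% and 4.24% of all tested probe sets, and the intervals of Mrap and Tmem50b 161222_r_at held both values. Whether the members differed from each other was tested within each array design, as the difference between 2 probe sets in each sample, over 9 pairs. The widest gap on array B was between C2cd2 and Hunk, where the genotype difference of C2cd2 exceeded that of Hunk by 0.56 (exact permutation p = 0.080, 0.53 adjusted over the 9 pairs). The C2cd2 difference exceeded that of Clic6 by 0.43 (exact permutation p = 0.18) and, on array A, that of Tmem50b 96340_at by 0.28 (exact permutation p = 0.14), each with an adjusted p of 0.53. The other 6 pairs had exact p from 0.45 to 0.998. No pair of members was thus shown to differ in its genotype difference.

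The position of the members among the other tested genes distal to Sod1 was described next. The reference annotation lists 166 genes there, and Hunk, Mrap, Tmem50b, Clic6 and C2cd2 are numbers 2, 14, 40, 76 and 159 in order from Sod1. On array A 29 other genes were tested, with a median log2 difference of 0.49, and on array B 25, with a median of 0.46. Of these others, 8 passed on the first design and 6 on the second, and 9 on each had no overlap between genotypes. Chromosome 16 genes on the other side of Sod1, which have 2 copies in both genotypes, had medians of -0.02 (186 tested, array A) and -0.03 (177 tested, array B). None of those passed (limma; 5 and 8 at an unadjusted p under 0.05). C2cd2 was exceeded by 2 of the 29 others with its array A probe set and by 1 of the 25 with its array B one, Mrap by 2 of 29, whereas Hunk was exceeded by 19 of 25, Clic6 by 13 of 25 and Tmem50b 96340_at by 11 of 29.

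A test of these positions passed for no member. Relative to the mean of the other genes in the same sample, C2cd2 differed by 0.42 on array B (exact permutation p = 0.056) and 0.36 on array A (p = 0.11, exact), and Hunk by -0.14 (exact permutation p = 0.37). Tmem50b 96340_at differed by 0.08 (exact permutation p = 0.62) and Clic6 by -0.00879 (exact permutation p = 0.95). Mrap differed by 0.41 (exact permutation p = 0.45). Over the 7 comparisons the lowest adjusted p was 0.39.

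**Figure D3:**
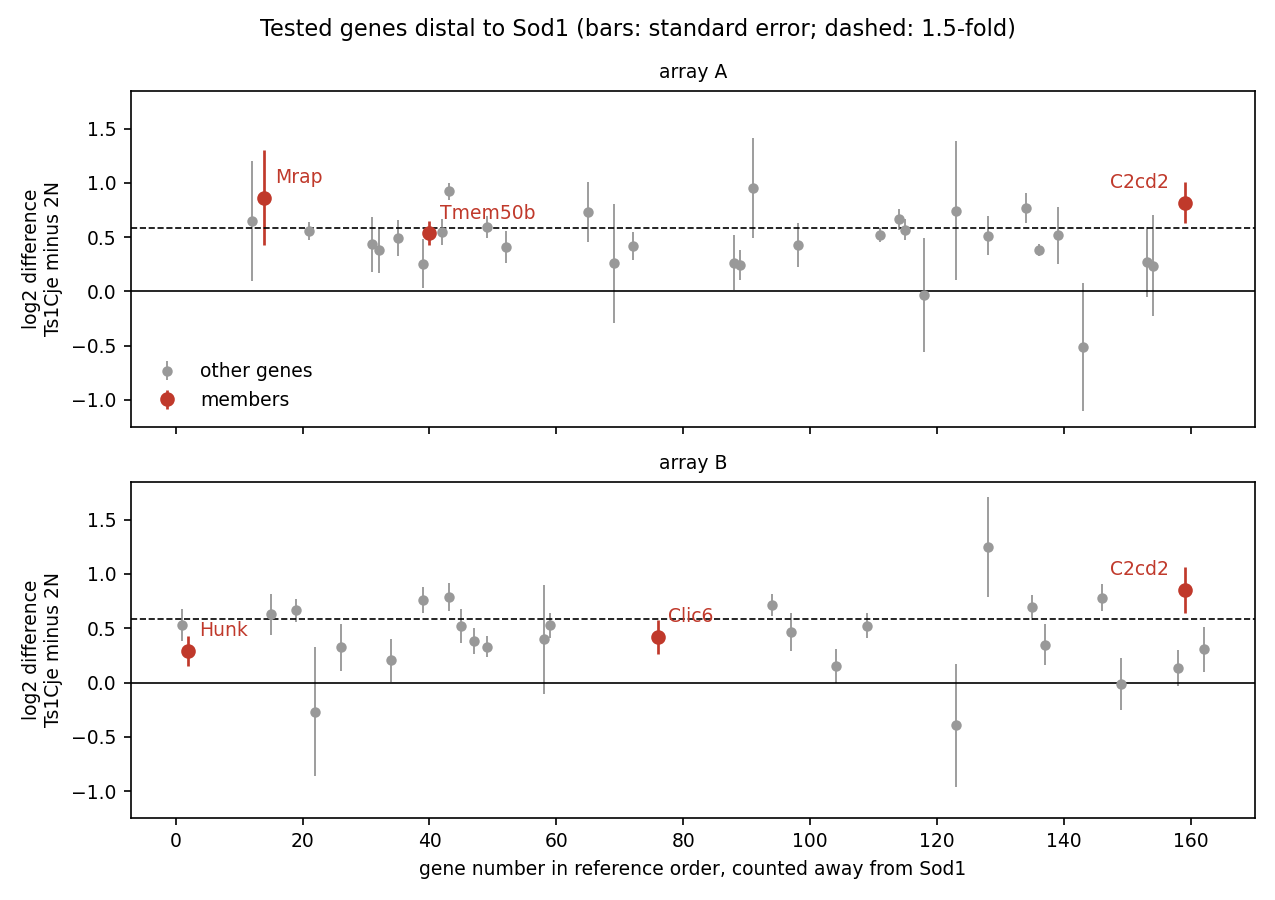
Log2 difference of Ts1Cje minus 2N (vertical axis, bars are standard errors) of every tested gene distal to Sod1, in reference gene order counted from Sod1 (horizontal axis), on array A (top) and array B (bottom). Members are red, other genes grey, and the dashed line is 1.5-fold; C2cd2 stands above the dashed line at the far end on both designs and Hunk below it at the near end.

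The nearest tested genes gave values on either side of the members. They need not be adjacent. In the reference order 12 genes lie between Hunk and Urb1, 6 between Mrap and Paxbp1 and 4 between C2cd2 and Tmprss2. Between Clic6 and Mrps6 lie 16 genes, and between Clic6 and Dop1b 17. Next to Hunk, the splicing-related gene Scaf4 was at 46.1 ± 8.28 in Ts1Cje and 32.1 ± 6.40 in 2N on array B, with 0.53 as the log2 difference (SE 0.15, limma adjusted p = 0.93), and on the far side the ribosome biogenesis gene Urb1 was at 0.63 (SE 0.19). Sod1, at the boundary, had one probe set at 0.39 (SE 0.12, array A) and another at 0.80 (SE 0.26, array B), although its extra copy is inactivated, and neither passed (limma adjusted p = 0.99 and 0.996). Hunk, at 0.29, was below the values of both neighbours on array B.

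Next to C2cd2 the differences were smaller. Prdm15, a zinc finger gene adjacent to it, was at 22.3 ± 5.42 in Ts1Cje and 20.0 ± 2.95 in 2N on array B (SD, n = 6 each), with 0.14 as the log2 difference (SE 0.17, limma adjusted p = 0.996), and Zbtb21 on the far side at 0.31 (SE 0.21). On array A the nearest tested gene, the dim protease gene Tmprss2, was at 0.24 (SE 0.47). Around Tmem50b, the interferon gamma receptor gene Ifngr2 was at 0.26 (SE 0.22, limma adjusted p = 0.99) and Gart, a gene of purine synthesis, at 0.55 (SE 0.12, limma adjusted p = 0.18) on array A.

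Ifngr2 has another probe set on array B, also of the r type, where Tmem50b has none. It averaged 462 ± 55.7 in Ts1Cje and 277 ± 61.7 in 2N (SD, n = 6 each), with no overlap between genotypes, and rose by 0.76 (SE 0.12, limma adjusted p = 0.016). The 2 Ifngr2 probe sets thus fell on different sides of the threshold, and their difference was not tested. The call on array B was lost without the mean-variance trend (adjusted p = 0.36), without normalisation (adjusted p = 0.9999), without a filter (0.12), among replicates 1 and 2 (0.25) and under the exact permutation test (0.88). Its unadjusted exact permutation p was 0.0022, the smallest that 6 against 6 samples can give. The loss under that test was therefore set by the adjustment and the number of arrangements, not by the size of the difference. Leaving out Ts1Cje replicate 1, Ts1Cje replicate 2 or 2N replicate 5 also ended it (limma adjusted p = 0.056, 0.055 and 0.051).

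Beside Clic6, the mitochondrial ribosomal protein gene Mrps6 was at 0.53 (SE 0.12, limma adjusted p = 0.27) and Dop1b, a gene of endosomal sorting, rose by 0.72 (SE 0.10, adjusted p = 0.0096) on array B. Dop1b lost its call without the mean-variance trend (adjusted p = 0.16), without normalisation (0.9999), among replicates 3 to 6 (0.098), among replicates 1 and 2 (0.96) and under the exact permutation test (0.88). Beside Mrap on array A, Paxbp1 rose by 0.56 (SE 0.083, limma adjusted p = 0.0054) and the dim Mis18a was at 0.65 (SE 0.55). Paxbp1 lost its call without the mean-variance trend (adjusted p = 0.051), without normalisation (0.9999), among replicates 1 and 2 (0.97) and under the exact permutation test (0.72). Dop1b and Paxbp1 both had the smallest exact permutation p that 6 against 6 samples can give (0.0022 unadjusted). Their losses under that test were therefore set by the adjustment and the number of arrangements, not by the size of the difference. Of these neighbours Paxbp1, Dop1b and Ifngr2 with its array B probe set passed. Their intervals held 1.5-fold (0.39 to 0.73, 0.51 to 0.92 and 0.50 to 1.01 on the log2 scale).

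Relatives of the members that have the normal 2 copies were set beside them. In the chloride intracellular channel family Clic4 was at 118 in Ts1Cje and 108 in 2N on array A (log2 difference 0.15, SE 0.14), and the dim Clic3 was at 0.10 (SE 0.57). On array B Clic1 was at -0.06 (SE 0.47) and Clic5 at -0.19 (SE 0.60), both dim, and their signs turned in several settings. With Clic6, the family had 0 passing of 2 tested on the first design and 0 of 3 on the second (limma; 0 and 1 at an unadjusted p under 0.05, the 1 being Clic6).

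C2cd2 shares the SMP domain, a lipid-carrying fold of membrane contact sites, with the extended synaptotagmins, Tex2, Pdzd8 and C2cd2l. Its paralog C2cd2l, which is not a gene of the segment, was at 46.0 in Ts1Cje and 31.1 in 2N on array B. This log2 difference of 0.64 (SE 0.24) missed the threshold (limma adjusted p = 0.996). The adjusted p of C2cd2l ran from 0.84 to 1 over the alternatives. Tex2 was at -0.11 (SE 0.12) on array B and 0.31 (SE 0.38) on array A, and Esyt1 at 0.30 (SE 0.18) on array A. Including C2cd2, 0 of 4 tested genes passed on the first design and 0 of 5 on the second (limma), with medians of 0.30 and 0.08. C2cd2 on both designs and C2cd2l were the members of the list with an unadjusted p under 0.05.

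Among the kinases related to AMP-activated kinase, array A tested 6 and array B 11, and 0 passed on either (limma; 1 and 2 at an unadjusted p under 0.05). The kinase with an unadjusted p under 0.05 on array A was the dim Mark1, at 1.76 in Ts1Cje and 11.01 in 2N, but another probe set of Mark1 on array B was at 164 in Ts1Cje and 163 in 2N. On array B they were Hunk and the AMP-activated kinase subunit gene Prkaa1 (10.2 in Ts1Cje and 5.21 in 2N). The median log2 differences of the list were -0.09 and 0.00620, and the value of 0.29 for Hunk is one of the 11. Brsk1 and Nuak1, kinases of neuronal polarity and of cell adhesion, were at -0.02 (SE 0.073) and -0.04 (SE 0.078) on array B. Mark2 and Mark3, which phosphorylate microtubule-associated proteins, were at -0.04 (SE 0.10) and -0.08 (SE 0.078) on array A. The signs of Brsk1, Nuak1, Mark2 and Mark3 turned in some settings.

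Of 10 listed melanocortin genes, 6 were tested on array A, Mrap included, and 0 passed (limma; 1 at an unadjusted p under 0.05), with a median of 0.16. The receptor gene Mc5r was at 0.25 (SE 0.26) and Mc1r at 11.5 in Ts1Cje and 18.8 in 2N, a log2 difference of -0.77 (SE 0.32). The receptor partner of Mrap, Mc2r, was dim, at 6.41 in Ts1Cje and 7.13 in 2N (0.07, SE 0.58). Tmem50a, the paralog of Tmem50b, was not found among the annotated probe sets of either table.

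The tissue label was checked against brain markers. The neuronal tubulin gene Tubb3 averaged 2804 in Ts1Cje and 2673 in 2N on array A, and 6 neuronal markers tested there had a median log2 difference of 0.06. Astrocyte markers had a median of 0.06 (6 tested) and oligodendrocyte and myelin markers of -0.06 (3 tested) on array A. On array B the 3 medians were -0.01, -0.05 and 0.39, and the last list had 2 tested genes, of which Olig2 lies in the segment. The 6 tested pituitary markers on array A had a median of 0.36, and their summed intensity was 103 to 128 in Ts1Cje samples against 61.4 to 121 in 2N samples. Of these 4 lists 0 genes passed on either array (limma), and unadjusted p-values under 0.05 were seen for the pituitary marker Cga on array A and the oligodendrocyte marker Sox10 on array B (log2 difference 0.46, SE 0.13), whose array A probe set was at -0.06 (SE 0.17). Whether cell makeup had a part in the member values was not tested.

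Earlier results of these data set replicates 1 and 2 apart from replicates 3 to 6 in both genotypes, a split that no label names. Within these sets the difference of Tmem50b 96340_at was 0.69 among replicates 1 and 2 and 0.46 among replicates 3 to 6. It was 1.09 and 0.67 for C2cd2 on array A, but 0.26 and 1.14 for C2cd2 on array B, so its 2 probe sets differed in which set was the higher. Hunk was at 0.45 and 0.21, and Clic6 at 0.40 and 0.43. The dim Tmem50b probe set was at 1.90 and -0.14. The sets hold 2 and 4 samples a genotype, and whether the difference depended on the set was not tested.

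Before normalisation the ratios of the mean deposited intensities were close to those above. Tmem50b 96340_at ran from 135.4 to 383.4 in Ts1Cje samples and from 115.9 to 275.1 in 2N samples, a ratio of means of 1.38. The ratio of means was 1.72 and 1.76 for the C2cd2 probe sets 102862_at and 162691_at, 1.298 for Hunk, 1.38 for Clic6 and 1.68 for Mrap. The deposited ranges of the 2 genotypes overlapped for all 7 probe sets, C2cd2 on array B included (15.1 to 25.8 in Ts1Cje samples and 6.2 to 20 in 2N samples).

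**Figure D4:**
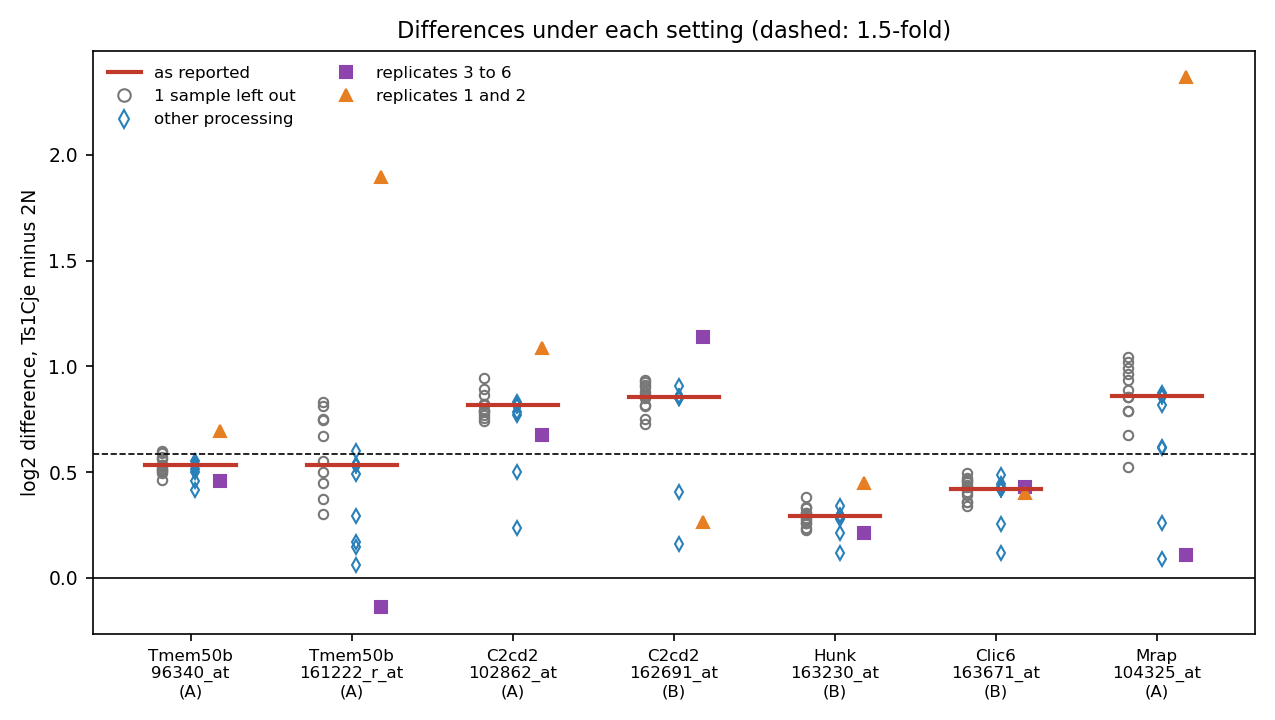
Log2 difference of Ts1Cje minus 2N (vertical axis) of each member probe set as reported (red bar), with 1 sample left out (grey circles), under other processing (blue diamonds) and within replicates 3 to 6 (purple squares) or replicates 1 and 2 (orange triangles). The bright Tmem50b probe set keeps between 0.42 and 0.69, while Mrap runs from 0.09 to 2.37 and the dim Tmem50b probe set from -0.14 to 1.90.

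For the members above the median brightness of the tested probe sets, genes with the most alike pattern were listed, by Pearson's r of the deviations from the genotype mean over 12 arrays. All points share arrays and normalisation, and the r values are the highest of 8376 probe sets on array A or 8293 on array B, so they are a description with no test. For Tmem50b 96340_at these were Ss18l2 (r = 0.97), Nfe2 (r = 0.90) and Slc2a3 (r = 0.88). Nfe2 was dim, with a mean of 6.18, and its r fell to 0.72 with the 25th percentile floor. For Hunk the genes were Prkab2 (r = 0.93), Zfp623 (r = 0.91) and Fam104a (r = 0.90). Their r values were lowest among replicates 3 to 6, at 0.81, 0.87 and 0.84. Averaged on the log2 scale, Hunk intensity was 47.7 in replicates 1 and 2 and 37.8 in replicates 3 to 6. Whether this split had a part in the r values was not tested. For Clic6 the genes were Atrn (r = 0.86), Srfbp1 (r = 0.86) and Med13l (r = 0.84). Srfbp1 was dim too, with a mean of 6.87, and its r ran from 0.82 to 0.90 over the alternatives. Slc2a3 encodes the neuronal glucose transporter, and Prkab2 a subunit of AMP-activated kinase. None of these 9 genes lies in the segment, and their own log2 differences lay between -0.16 and 0.15.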

How the data were processed

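Total RNA of mouse brain was measured on 2 Affymetrix designs, with 6 Ts1Cje and 6 2N samples on each, grouped by their titles. The deposited values are linear intensities, with 1 value for each probe set in each array. The summarisation and scaling by the authors are not given in the sources used here. Array medians ran from 11.2 to 21.7 on array A and 7.9 to 13.8 on array B, and the number of arrays limits the precision.

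After 66 control probe sets were left out of each table, the 12422 and 12411 others were quantile normalised, since trimmed means differed by up to 2.10-fold and 1.86-fold. Values below the 10th percentile (1.47 and 1.13) were set to it, before taking log2. Those whose mean reached the 25th percentile, 9316 and 9308, were tested with limma 3.58.1 in R 4.3.3 (lmFit, eBayes with a mean-variance trend), Ts1Cje against 2N. P-values were adjusted over each table by Benjamini-Hochberg, with a threshold of 0.05. The tables were tested apart. Single comparisons used two-sided exact permutation tests over the samples (924 arrangements). The pipeline was tested on simulated data. Alternatives varied the normalisation, floor, filter, test, replicate block and samples.

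Names come from the platform annotation, with gene order from RefSeq (GRCm38.p6); 3 of 5 members matched a promoter window. Named beside the members are the nearest tested neighbours, Sod1, the 2 brightest genes of each related list (or those that passed) and the genes most alike in pattern. Other genes, such as Mc2r, Mark1, Prkaa1, Retn, Ttr, Folr1, Tubb3, Cga, Sox10 and Ifngr2 on array B, were named after their values were seen, and so were the tests of members against each other and against the segment. The members and lists were chosen with earlier results of these data known.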

Additional observations from a re-analysis of the deposited data

Results flagged for a closer look

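Of 14 groups of 6 samples, 1 held a sample far from the others by Dixon's test at the 95% level, which chance gives in about 1 group of 20. Ts1Cje replicate 6 was at 222.8 for Tmem50b 96340_at on array A, and the nearest of the other Ts1Cje samples was at 283.3. Its gap of 0.626 of the group's range was just over the critical value. The same array was the lowest Ts1Cje sample for C2cd2 102862_at and Mrap but not for Tmem50b 161222_r_at, and it had the lowest deposited median of array A. Whether its overall dimness had a part in these values was not tested.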

How the results depend on the processing

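Over all alternatives, the log2 differences of Tmem50b 96340_at, C2cd2 on both arrays, Hunk, Clic6 and Mrap were above 0. Where a value below moved, the cause was not tested unless given. With the replicate block 0 member probe sets passed on either array. Same-numbered samples of the 2 genotypes correlated by 0.02 to 0.08 on array A and 0.01 to 0.11 on array B after removal of the genotype means. These correlations were low, but 4 of 6 Ts1Cje samples on each array were nearest to their own number. Whether the numbers stand for pairs is thus not settled. The main comparison did not use them as pairs, whereas the replicate block did. Members past the threshold on array A numbered 1 with array quality weights and 0 to 2 with 1 sample left out, the 2 without Ts1Cje replicate 6, and on array B 0 throughout. Intervals holding 1.5-fold numbered 4 on array A, but 2 with 16 added before log2 and 1 with 64 added. They numbered 2 with the 50th percentile filter, which tests fewer probe sets, and 3 to 4 with 1 sample left out. The 3 arose without Ts1Cje replicate 2 or 6, where Tmem50b 161222_r_at fell below the filter. Every array A interval tested with 1 sample left out held 1.5-fold. On array B they numbered 2, but 1 with 16 added, 0 with 64 added, 1 among replicates 3 to 6 and 2 to 3 with 1 sample left out. Added constants shrink the differences of dim probe sets.

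The difference between the 2 Tmem50b probe sets was 0.035 without normalisation, 0.086 with trimmed-mean scaling, 1.20 among replicates 1 and 2, -0.60 among replicates 3 to 6, -0.24 with the 25th percentile floor, -0.33 with 16 added, -0.36 with 64 added (exact permutation p = 0.017) and -0.41 to 0.32 with 1 sample left out. With 64 added, 161222_r_at was at 0.058 and 96340_at at 0.42. The constant shrinks the dim probe set more, so that p does not show that the 2 differ. Signs also turned for other values. Tmem50b 161222_r_at was at -0.14, Tmprss2 at -0.18, Mark2 at 0.017, Nuak1 at 0.011 and Prdm15 at -0.12 among replicates 3 to 6. Among replicates 1 and 2, Tex2 (array A) was at -0.070, Mark3 at 0.028, Ifngr2 at -0.35, Mis18a at -0.73, Clic1 at 0.092, Clic5 at 1.03 and Brsk1 at 0.032. Tmprss2 was at -0.051 and Clic1 at 0.085 with the 25th percentile floor. Clic1 was at 0.020 and Brsk1 at 0.033 without normalisation. Clic1 was at 0.067 with 16 added, 0.035 with 64 added and 0.039 with array quality weights. With 1 sample left out, Clic3 ran from -0.13 to 0.44, Mark2 from -0.11 to 0.034, Tmprss2 from -0.12 to 0.38, Clic1 from -0.31 to 0.47, Clic5 from -0.47 to 0.17, Brsk1 from -0.046 to 0.017 and Nuak1 from -0.076 to 0.00429.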
